A study of Mus musculus with 6 samples.

Results

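The genes described here are 35 chemokine ligand and receptor genes of the mouse, taken by name from the CC, CXC and CX3C families and read from 31053 genes counted in each library. They are 14 CC ligands, 9 CXC or CX3C ligands, 8 signalling receptors and 4 atypical receptors, and the list does not hold every gene of these families. Their sense-strand read counts were compared between 2 fractions of cultured fetal lung cells, to see which fraction held transcripts of a ligand and which held those of its receptor. All cells came from lungs of wild type C57BL6 mouse embryos at stage E17, were dissociated with liberase, frozen in DMSO and plated on thin diluted matrigel. Both fractions grew in the same medium for haematopoietic stem and progenitor cells with mTPO, IL6, SCF, FGF, VEGF and Flt3, and were washed and refed on day 3. The suspension fraction was the cells floating above the layer on days 4, 5 and 6, with no sort. The adherent fraction was the layer of the same days, detached with accutase and put through a sort that enriched live VE-cadherin-positive cells (VE-cadherin is an adhesion protein of endothelial junctions). Each fraction therefore had 3 libraries, 1 per day, and these 3 days stood in as its replicates. Whether the days were separate cultures or litters is not given in the sources used here, and the p-values then reflect only how far these libraries differ, which may be technical.

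Chemokines are small secreted proteins that guide moving cells along concentration gradients. They bind receptors with a bundle of membrane-spanning helices that signal through inhibitory G proteins to the cytoskeleton, while atypical receptors take up or present ligand without that G protein signal. In the lung, macrophages, endothelium, epithelium and fibroblasts release them, and ligands of Ccr2 draw monocytes while ligands of Cxcr2 draw neutrophils. In the bone marrow and fetal blood-forming sites, receptors such as Cxcr4 hold blood progenitors and immature neutrophils in place.

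The libraries held 36451255 to 57784974 sense counts over all genes. Levels are given as CPM, counts scaled to a common library total and corrected by trimmed mean of M-values (TMM) factors, so 3 counts in a library, the floor used here, equal 0.0594 to 0.0756 CPM. The counts are of whole 10x libraries without cell barcodes, so fewer cells of a type and less RNA per cell cannot be told apart in any value below. Cdh5, which encodes VE-cadherin, lay at 0.119 to 0.381 CPM in suspension and at 79.0 to 226.1 CPM in the sorted adherent libraries. The sorted libraries were not purely endothelial in their transcripts. Summed CPM of 12 endothelial markers was 670.5 to 1752 there, that of 8 fibroblast markers was 1523 to 2353 and that of 10 macrophage markers was 3006 to 7580. In suspension the macrophage markers summed to 18089 to 20054 CPM and 10 neutrophil markers to 25915 to 76758 CPM, against 268.6 to 1113 CPM for the neutrophil markers in the adherent fraction. The ratio of suspension to adherent means was 4.04 for the macrophage markers and 60.5 for the neutrophil markers. Of the markers tested, 9 of 10 for macrophages and 10 of 10 for neutrophils were higher in suspension, and 11 of 12 for endothelium and 8 of 8 for fibroblasts were lower. None of these markers was at 0 throughout a fraction. The macrophage and neutrophil sums moved with the genes that were higher in suspension, and their part in those differences was not tested.

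Of the 35 genes, 26 had an entry in the RefSeq promoter set (GRCm38.p6). The sequences shown are those of the neighbouring neutrophil attractants Cxcl3, Cxcl1 and Cxcl2 on chromosome 5, whose levels in the adherent fraction were lowest on day 4 in each case (values below) and whose promoters share a run of letters. Each line gives the 150 bases before the RefSeq start site, 5′ to 3′ on the plus strand, and the capitals mark GGGAATTTCCC, the longest run that all 3 windows share. It contains a form of the site bound by the NF-κB transcription factors.
Cxcl3: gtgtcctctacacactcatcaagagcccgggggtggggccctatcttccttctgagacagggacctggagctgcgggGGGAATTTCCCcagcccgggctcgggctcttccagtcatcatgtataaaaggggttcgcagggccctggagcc
Cxcl1: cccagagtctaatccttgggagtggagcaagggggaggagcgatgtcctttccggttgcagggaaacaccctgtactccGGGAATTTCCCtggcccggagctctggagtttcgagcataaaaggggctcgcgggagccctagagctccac
Cxcl2: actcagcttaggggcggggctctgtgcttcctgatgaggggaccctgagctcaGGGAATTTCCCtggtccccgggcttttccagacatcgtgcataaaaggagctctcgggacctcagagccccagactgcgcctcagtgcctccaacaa
These windows lie at chr5:90785951-90786100, chr5:90891095-90891244 and chr5:90903749-90903898, and the run begins 73, 71 and 97 bases before the start in that order. Over 61 bases aligned on it, the run included, Cxcl3 and Cxcl1 were identical at 45.9% of positions, Cxcl3 and Cxcl2 at 39.3%, and Cxcl1 and Cxcl2 at 49.2%. Searched on both strands of the 250 bases before the start, GGGAATTTCCC occurred in 14 of 32851 promoters of the set (0.0426%) and in no other of the 26 matched genes. A match describes letters in the window and says nothing of binding in these cells.

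Of the 35 genes, 28 had enough counts for a test across all genes (edgeR quasi-likelihood, Benjamini-Hochberg over 14912 genes), in which a gene is called at an adjusted p of at most 0.05. In suspension 8 were higher (Ccl3, Ccl6, Ccl8, Ccl9, Ccl17, Ccr1, Ccr2 and Cxcr2) and 4 were lower (Ccl11, Cxcl1, Cx3cl1 and Ackr3), while 16 were not called. This is 42.9% of the 28 tested, where 56.8% of all tested genes were called (27.1% higher and 29.7% lower). Their median log2 ratio of suspension to adherent was 0.51, against -0.002 over all tested genes. The 3 suspension libraries lay wholly above the 3 adherent ones for 11 of the 28 and wholly below for 4, where 33.4% and 34.4% of all tested genes did so (67.8% either way). Summed over the 23 ligands, suspension reached 8524, 8882 and 9785 CPM on days 4, 5 and 6, and the adherent fraction 2889, 3055 and 4731 CPM, a ratio of means of 2.55. A single gene made up most of that gap. Without Ccl6 the ligand sums overlapped, at 1898 to 2955 CPM in suspension and 1822 to 2221 CPM in the adherent fraction. The 12 receptors summed to 305.0, 330.8 and 413.3 CPM in suspension and to 79.7, 119.9 and 126.1 CPM in the adherent fraction, a ratio of 3.22. The 8 signalling receptors alone had a ratio of 4.19. The 4 atypical ones summed to 7.25 to 10.4 CPM in suspension and 16.1 to 40.1 CPM in the adherent fraction, but that order rested on Ackr3, without which the sums were 7.25 to 10.3 CPM in suspension and 1.75 to 4.92 CPM in the adherent fraction. Together the 35 genes took 0.866% ± 0.0304 (SD, n = 3) of the gene counts in suspension and 0.396% ± 0.0993 in the adherent fraction.

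**Figure D1:**
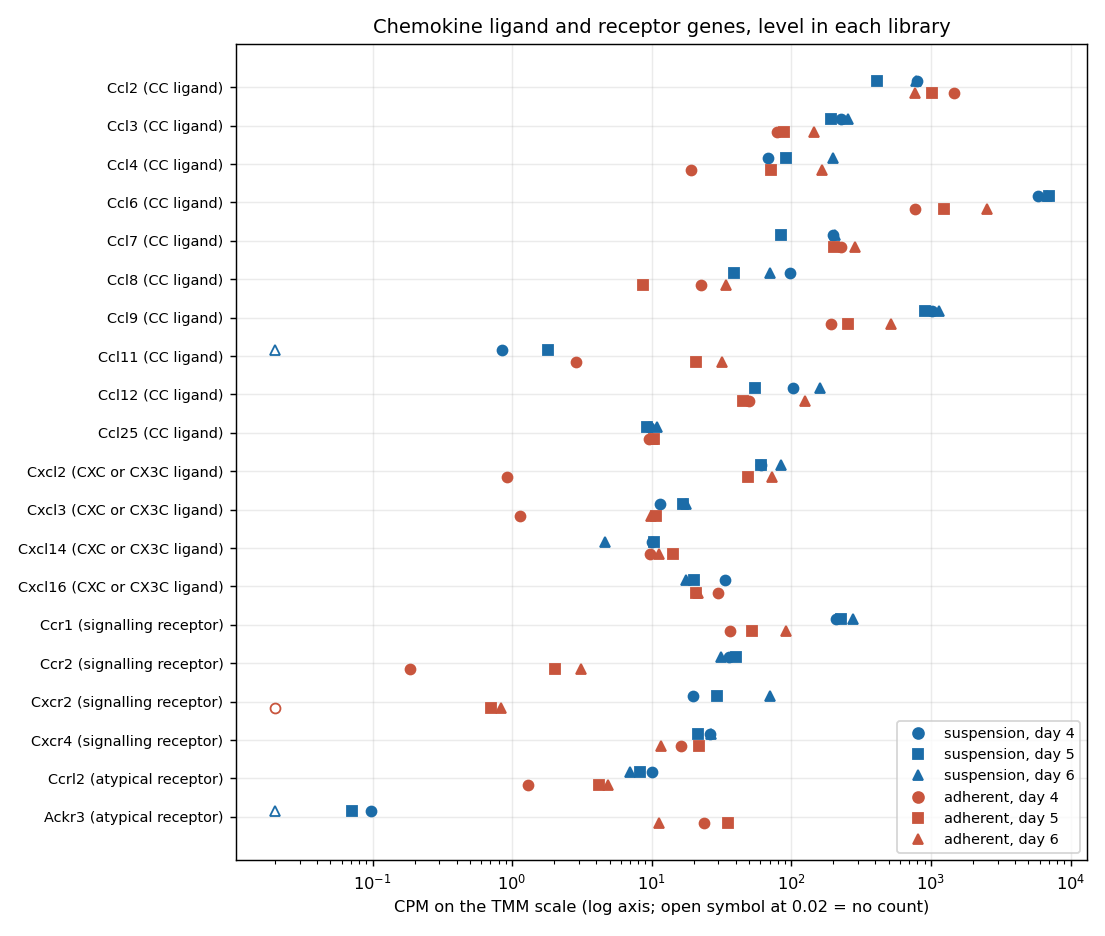
Level of the 20 genes with a mean of at least 5 CPM in a fraction, in each of the 6 libraries. The horizontal axis is CPM on a log scale, colours are the fractions, shapes are the days, and open symbols mark a library with no count; Ccl6 stands highest in suspension, and Ackr3 is near 0 in suspension and between 11.2 and 35.2 CPM in the adherent libraries.

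Ccl6 and Ccl9, rodent ligands of Ccr1 made by myeloid cells, were both higher in suspension. Ccl6 stood at 5884, 6984 and 6830 CPM in suspension and at 769.0, 1232 and 2509.5 CPM in the adherent fraction on days 4, 5 and 6. All suspension libraries were above all adherent ones, and the log2 ratio was 2.13 ± 0.43 (SE; edgeR adjusted p = 0.00639). Ccl9 stood at 1017, 901.5 and 1143 CPM in suspension against 191.0, 254.2 and 519.6 CPM, again without overlap, with a log2 ratio of 1.67 ± 0.37 (adjusted p = 0.00975). The day-matched ratio of both was smaller on each later day, from 7.65 to 5.67 to 2.72 for Ccl6 and from 5.33 to 3.55 to 2.20 for Ccl9. The macrophage marker sum had the same order by day in the adherent fraction, at 3006, 3790 and 7580 CPM. Of the summed counts of the 23 listed ligands, Ccl6 alone supplied 72.5% ± 5.33 in suspension and 40.0% ± 13.2 in the adherent fraction (SD, n = 3 each).

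Ccl3, an inflammatory macrophage product that binds Ccr1, was also higher in suspension. It reached 227.8, 192.4 and 256.2 CPM there and 78.6, 88.4 and 145.3 CPM in the adherent fraction, so the lowest suspension library was above the highest adherent one. The log2 ratio was 1.12 ± 0.25 (edgeR adjusted p = 0.0103). Ccl4, its neighbour on the chromosome and also a macrophage product, was not called, with 67.9, 91.6 and 198.4 CPM in suspension and 19.2, 72.1 and 164.7 CPM in the adherent fraction. Its groups overlapped because both fractions spanned a wide range over the 3 days, and the log2 ratio was 0.48 ± 0.76 (adjusted p = 0.613). Ccl5, a lymphocyte and monocyte attractant, had low and scattered values of 0.238 to 3.49 CPM in suspension and 0.151 to 5.45 CPM in the adherent fraction, and was not called (log2 ratio -0.80 ± 1.41, adjusted p = 0.652).

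The monocyte attractants that bind Ccr2 did not differ between fractions by this test. Ccl2, the best known of them, reached 791.1, 409.2 and 775.6 CPM in suspension and 1471, 1014 and 762.9 CPM in the adherent fraction. The adherent libraries were higher on days 4 and 5 and level on day 6, and the log2 ratio was -0.72 ± 0.33 (edgeR adjusted p = 0.110). Ccl7 gave 198.3, 83.8 and 204.6 CPM in suspension and 225.4, 203.1 and 288.0 CPM in the adherent fraction, with overlapping groups (log2 ratio -0.56 ± 0.35, adjusted p = 0.210). Ccl12 gave 103.3, 54.8 and 159.5 CPM against 49.7, 45.4 and 125.3 CPM, also overlapping (log2 ratio 0.53 ± 0.52, adjusted p = 0.419). In suspension the day 5 library was the lowest of the 3 for all 3 genes, and for Ccl8 next to them. Of the summed counts of the 23 listed ligands, Ccl2 took 33.4% ± 17.4 in the adherent fraction and 7.27% ± 2.40 in suspension (SD, n = 3 each). Its adherent share was 50.9%, 33.2% and 16.1% on days 4, 5 and 6.

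Ccl8, a ligand of Ccr8 in the mouse, was higher in suspension at 97.5, 38.8 and 70.7 CPM, against 22.6, 8.59 and 34.3 CPM in the adherent fraction. The groups were separated by a narrow gap, and the log2 ratio of 1.66 ± 0.55 passed by little (edgeR adjusted p = 0.0395). Leaving out suspension day 4 (adjusted p = 0.117), suspension day 6 (0.0822), adherent day 4 (0.0839) or adherent day 5 (0.0620) ended the call.

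Ccl11, an eotaxin that draws eosinophils through Ccr3 and is made by fibroblasts and smooth muscle, went the other way. It had 0.848, 1.81 and 0 CPM in suspension and 2.86, 20.7 and 31.7 CPM in the adherent fraction, where the day 4 library was far below the later ones. The log2 ratio was -4.40 ± 1.34 (edgeR adjusted p = 0.0299), and with the collection day as a block the adjusted p was 0.0697. It also ended on leaving out suspension day 4 (0.0820), adherent day 5 (0.0764) or adherent day 6 (0.0656). The fibroblast marker sum was also lower in suspension, at 17.9 to 67.9 CPM against 1523 to 2353 CPM in the adherent fraction. The same held for the sum of 7 mural markers, at 7.84 to 102.1 against 497.4 to 2689.5 CPM. Over adherent days 4, 5 and 6 the fibroblast sum was 1523, 2353 and 2332 CPM and the mural sum 2689.5, 497.4 and 707.8 CPM. The mural sum was thus highest on day 4, where Ccl11 was lowest. Acta2 and Tagln made up most of it that day, at 1400.5 and 1203.9 CPM, and Myh11 and Cspg4 were highest on day 4 too. The other 3 of the 7 markers, Pdgfrb, Rgs5 and Notch3, rose on each later adherent day, as Ccl11 did. The part of fibroblasts and mural cells was not tested. Ccl24, another eotaxin made by macrophages, was spread alike over the fractions, at 1.60 to 5.58 CPM in suspension and 1.06 to 4.82 CPM in the adherent fraction (log2 ratio 0.13 ± 0.65, adjusted p = 0.879).

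Ccl17, a product of dendritic cells and macrophages that binds Ccr4, was scarce but higher in suspension, at 1.16, 1.52 and 3.21 CPM against 0.392, 0.126 and 0.210 CPM. That is 274 counts in suspension and 31 in the adherent fraction, and the log2 ratio was 3.0 ± 0.59 (edgeR adjusted p = 0.00607). Ccl22, the other Ccr4 ligand, had 10 counts in all 6 libraries together and was not tested. Ccl25, a thymic and intestinal ligand of Ccr9, had the smallest SE of the tested CC ligands. Its CPM was 9.64, 9.27 and 10.9 in suspension and 9.64, 10.4 and 10.2 in the adherent fraction, a log2 ratio of -0.02 ± 0.13 (adjusted p = 0.914). Its gene overlaps Elavl1 on the opposite strand, and antisense reads over Ccl25 were 4.14 per 100 sense reads.

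**Figure D2:**
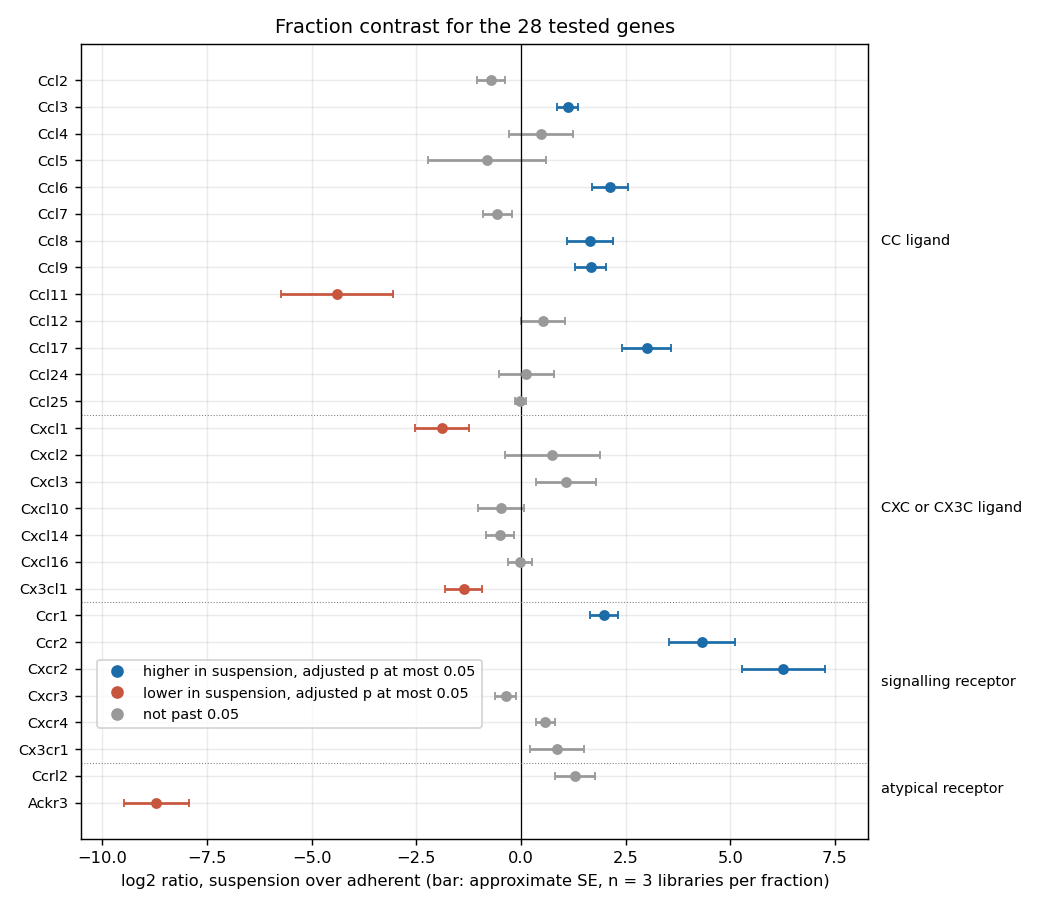
Fraction contrast of the 28 tested genes as the log2 ratio of suspension to adherent, with bars for the approximate SE (n = 3 libraries per fraction). Colours show the call at an adjusted p of 0.05; the receptors Ccr2 at 4.33 and Cxcr2 at 6.27 lie farthest to the right and Ackr3 at -8.71 farthest to the left.

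None of the 7 tested CXC and CX3C ligands was higher in suspension, where 27.1% of all tested genes were. Of the 7, 2 or 28.6% were lower, near the 29.7% of all tested genes. Cxcl1, a neutrophil attractant that binds Cxcr2, had 1.33, 0.620 and 1.07 CPM in suspension and 1.29, 3.0 and 6.83 CPM in the adherent fraction. On day 4 the fractions overlapped, and the log2 ratio of -1.88 ± 0.64 passed by little (edgeR adjusted p = 0.0443). With the collection day as a block the adjusted p was 0.0844. Of the 6 libraries, only adherent day 4 could be left out with the call kept; the adjusted p was 0.0639, 0.123 and 0.0911 without suspension day 4, 5 and 6, and 0.0787 and 0.121 without adherent day 5 and 6.

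Cxcl2 and Cxcl3, ligands of the same receptor that macrophages release on stimulation, were more abundant than Cxcl1. Cxcl2 stood at 61.0, 60.2 and 84.2 CPM in suspension and at 0.923, 48.8 and 72.7 CPM in the adherent fraction. Only the adherent library of day 4 stood apart, with a day-matched ratio of suspension to adherent of 66.0 on day 4 and of 1.23 and 1.16 on days 5 and 6. Cxcl3 had the same low adherent library, with 11.5, 16.8 and 17.6 CPM in suspension and 1.13, 10.8 and 9.88 CPM in the adherent fraction. Neither was called (log2 ratios 0.75 ± 1.13 and 1.08 ± 0.72, edgeR adjusted p = 0.599 and 0.239). Cxcl5, which epithelial cells of the lung release, passed the count filter in too few libraries to be tested, with 4, 1 and 3 counts in suspension and 5, 37 and 128 in the adherent fraction. The sum of 7 epithelial markers did not have that order, at 1348, 300.6 and 935.4 CPM in the adherent fraction. The 4 genes lie within 146.6 kb of chromosome 5, and their adherent sum was 3.46, 63.5 and 92.4 CPM on days 4, 5 and 6, against 73.9, 77.6 and 102.9 CPM in suspension. In the adherent fraction the macrophage marker sum was 3006, 3790 and 7580 CPM on these days, and the neutrophil marker sum 268.6, 863.9 and 1113 CPM. The sum of 8 mast cell and basophil markers was also lowest on day 4, at 36.5, 121.4 and 185.3 CPM in the adherent fraction. Of the 8, 5 rose on each later adherent day. Mcpt8, at 31.6, 59.1 and 3.4 CPM, and Gata2, at 4.52, 5.84 and 3.61 CPM, did not, and Prss34 had no adherent count. Among the 5, Cpa3 had 0, 28.2 and 93.0 CPM and Tpsb2 0, 18.8 and 72.3 CPM. Both are mast cell proteases named after their values were seen. The part of these cell types in the adherent values of the ligands was not tested.

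Cx3cl1, a membrane-anchored ligand of endothelium and neurons, was lower in suspension, at 0.775, 1.05 and 0.337 CPM against 2.10, 1.66 and 1.79 CPM, with a log2 ratio of -1.37 ± 0.44 (edgeR adjusted p = 0.0361). Its groups did not overlap, but the call ended on leaving out suspension day 4 (0.0785), adherent day 4 (0.0802), adherent day 5 (0.0773) or adherent day 6 (0.0645). The endothelial marker sum was also lower in suspension, at 15.7 to 22.0 CPM, against 884.6, 1752 and 670.5 CPM on adherent days 4, 5 and 6. That sum was highest on day 5, where adherent Cx3cl1 was lowest, and the part of endothelium was not tested. Cxcl14, a constitutive ligand of epithelia and fibroblasts, had 9.98, 10.4 and 4.59 CPM in suspension and 9.76, 14.1 and 11.3 CPM in the adherent fraction (log2 ratio -0.50 ± 0.33, adjusted p = 0.238). Cxcl16, a transmembrane ligand of Cxcr6 on macrophages and endothelium, had 33.4, 20.0 and 17.6 CPM against 29.9, 20.7 and 21.5 CPM (log2 ratio -0.02 ± 0.28, adjusted p = 0.95). Both overlapped between fractions, and for Cxcl16 the day 4 library was the highest in each. Of the ligands of Cxcr3 that interferon gamma induces, Cxcl10 stayed at 0.548 to 1.89 CPM in suspension and 1.11 to 2.70 CPM in the adherent fraction (log2 ratio -0.48 ± 0.55, adjusted p = 0.487), and Cxcl9 had 1 count in all.

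**Figure D3:**
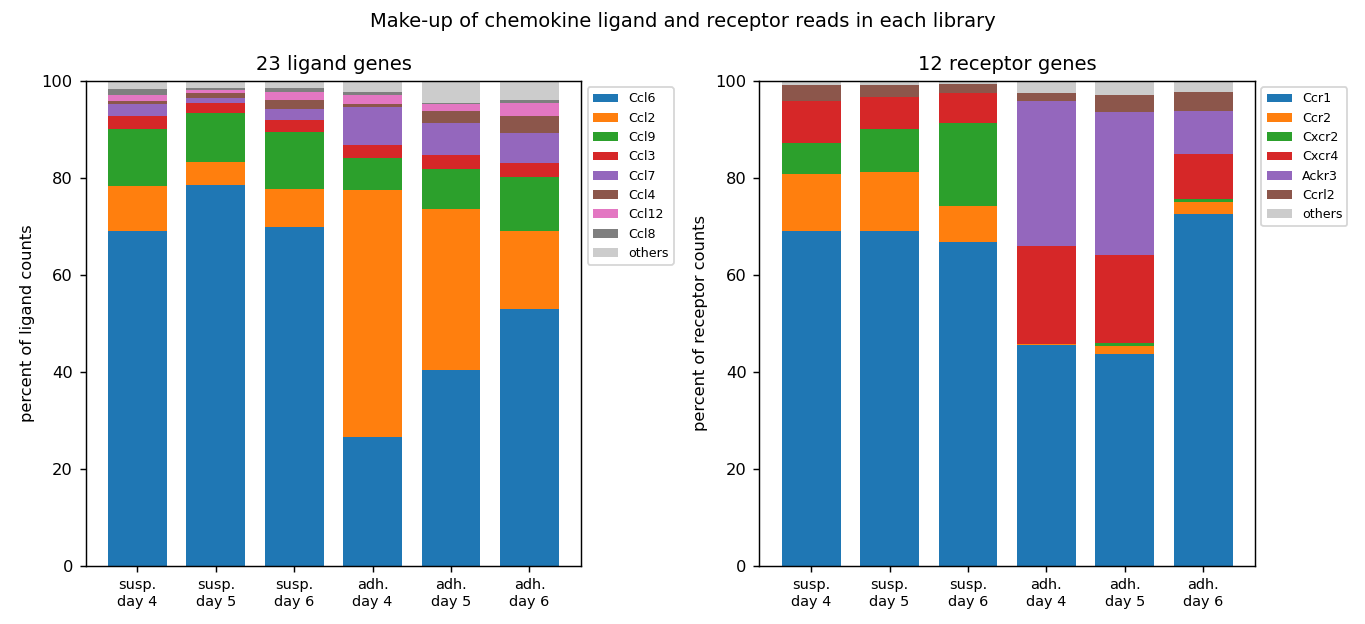
Share of each gene in the summed counts of the 23 ligands (left) and the 12 receptors (right) in each library, in percent. Ccl6 fills 69.0 to 78.6% of ligand counts in suspension and 26.6 to 53.0% in the adherent fraction; Ackr3 fills 8.87 to 29.8% of receptor counts in the adherent fraction and at most 0.0318% in suspension.

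Of the 6 signalling receptors tested, Ccr1, Ccr2 and Cxcr2 were higher in suspension and Cxcr3, Cxcr4 and Cx3cr1 were not called, where 27.1% of all tested genes were higher. Ccr1, found on monocytes, macrophages and neutrophils, was the most abundant receptor, at 210.3, 228.5 and 275.7 CPM in suspension and 36.2, 52.3 and 91.4 CPM in the adherent fraction. The groups lay apart, with a log2 ratio of 1.99 ± 0.34 (edgeR adjusted p = 0.00364). Ccr2, the receptor of monocytes for Ccl2, Ccl7 and Ccl12, stood at 36.0, 40.3 and 31.1 CPM against 0.185, 2.04 and 3.12 CPM, a ratio of means of 20.1 and a log2 ratio of 4.33 ± 0.79 (adjusted p = 0.00454). Cxcr2, the neutrophil receptor for Cxcl1, Cxcl2, Cxcl3 and Cxcl5, stood at 19.6, 29.4 and 70.1 CPM against 0, 0.705 and 0.839 CPM, with a log2 ratio of 6.27 ± 1.0 (adjusted p = 0.00278). Its ratio of means, 77.2, was near that of the neutrophil marker sum, 60.5, and that sum had the same order over the suspension days, at 25915, 33110 and 76758 CPM. S100a8 and S100a9 made up most of that sum in suspension, at 17060 and 20997 of 45261 CPM. Ratios of its 10 markers ran from 7.63 for Mmp8 to 124.2 for Ltf, and 8 of the 10 rose on each later suspension day. The ratio of means for Ccr1, 3.97, was near that of the macrophage marker sum, 4.04. Lyz2 made up most of that sum in suspension, at 13724 of 19343 CPM. Single macrophage markers had ratios from 2.08 for C1qa to 5.21 for Lyz2. The part of either cell type in these differences was not tested.

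Cxcr4, the retention receptor of blood progenitors, was held by both fractions. It had 26.1, 21.6 and 26.4 CPM in suspension and 16.2, 21.8 and 11.7 CPM in the adherent fraction, overlapping at day 5, with a log2 ratio of 0.58 ± 0.23 (edgeR adjusted p = 0.0741). The call depended on single settings: it passed with adherent day 5 left out (adjusted p = 0.0229) and with reads of either strand (0.0412). Cxcr3, a receptor of activated lymphocytes, had 1.07 to 1.23 CPM in suspension and 1.35 to 1.71 CPM in the adherent fraction, without overlap but also without a call (log2 ratio -0.36 ± 0.25, adjusted p = 0.263). Cx3cr1, found on resident macrophages and monocytes, had 1.29 to 1.38 CPM in suspension and 0.162, 0.856 and 1.19 CPM in the adherent fraction (log2 ratio 0.86 ± 0.64, adjusted p = 0.287). Its annotated span overlaps 9 other genes, 3 of them on its own strand. The eosinophil receptor Ccr3 had 12 counts in suspension and 1 in the adherent fraction, a ratio of 11.3 with a 95% counting interval of 1.67 to 482.9. Its suspension counts were 1, 2 and 9 on days 4, 5 and 6. The sum of 4 eosinophil markers was 19.6, 6.43 and 2.22 CPM, of which Prg2 supplied 16.4, 3.07 and 0.0396 CPM. Siglecf had 2.86, 3.1 and 1.84 CPM, and Epx had 7, 6 and 0 counts. Il5ra, with 7, 5 and 17 counts, was highest on day 6, as was Ccr3. Ccr7, which guides dendritic cells and lymphocytes to lymph nodes, had 4 and 27 counts and was not tested either.

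Of the atypical receptors, Ackr3 had the widest gap of all 28 tested genes. It is a scavenging receptor of vascular endothelium and mesenchyme. In suspension it had 0.0969, 0.0715 and 0 CPM, near the floor of 3 counts, and in the adherent fraction 23.8, 35.2 and 11.2 CPM. That is 7 counts against 2907, and the log2 ratio was -8.71 ± 0.78 (edgeR adjusted p = 0.000567). Ackr3 met the count filter through its adherent libraries alone, so its call adds nothing to those counts. Within the adherent fraction the day 5 library was highest and the day 6 library lowest, and the endothelial marker sum had the same order, at 884.6, 1752 and 670.5 CPM. The fibroblast marker sum, at 1523, 2353 and 2332 CPM, did not have that order. Of its 8 markers, Col1a1 did have it, at 531.4, 722.2 and 494.9 CPM, while 5 rose on each later day. The part of endothelium or fibroblasts was not tested. Of the summed counts of the 12 listed receptors, Ackr3 took 22.7% ± 12 in the adherent fraction and 0.0178% ± 0.0162 in suspension (SD, n = 3 each).

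Ccrl2, which binds the attractant chemerin and presents it without signalling, was more abundant in suspension without a call, at 10.1, 8.29 and 6.95 CPM against 1.29, 4.21 and 4.87 CPM. The log2 ratio was 1.29 ± 0.47 (edgeR adjusted p = 0.0563), and it passed with adherent day 4 (0.018) or adherent day 6 (0.0401) left out, and in DESeq2 (0.0183). Ackr2, a scavenger of inflammatory CC ligands on lymphatic endothelium, had 0 counts in suspension and 20, 27 and 2 in the adherent fraction. Its level in suspension was at least 5.84-fold lower, taking 3 counts per library as the floor. Ackr1, which binds many inflammatory ligands on red cells and venules, had 23 counts in suspension and 1 in the adherent fraction, a ratio of 21.7 with a 95% counting interval of 3.52 to 892.0. Its 8, 0 and 15 counts on days 4, 5 and 6 followed the order of the red cell marker sum, at 149.6, 34.8 and 218.1 CPM, and the part of red cells was not tested. These intervals treat each read as independent and leave out differences between libraries. They may be too narrow even for counting error, since reads were counted without molecular identifiers.

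Levels of different genes were ordered as CPM per kb of exonic length, which is approximate here because reads of 3′ libraries do not scale with transcript length. In suspension Ccl6 led at 3658 ± 332, followed by Ccl2 at 578.8 ± 189.9, Ccl9 at 335.2 ± 39.7 and Ccl3 at 294.4 ± 41.7 CPM per kb (SD, n = 3). Only Ccl6 was clear of the next gene in that run, since the ranges of Ccl2, Ccl9 and Ccl3 overlapped from each to the next. In the adherent fraction Ccl2, at 951.3 ± 315.2, and Ccl6, at 837.7 ± 502.2 CPM per kb, came first with overlapping ranges, and Ccl7, at 298.2 ± 55.0, was clear of both its neighbours. The first receptor was Ccr1, in ninth place in each fraction, at 84.1 ± 11.9 in suspension and 21.2 ± 10.0 CPM per kb in the adherent fraction. Without division by length the order differed: Ccr1 was in place 4 in suspension and 8 in the adherent fraction, and Ccl6 came first in both. Ackr3 was last of the 20 genes in suspension, at 0.0168 ± 0.0150 CPM per kb, and in the adherent fraction stood at 6.98 ± 3.59, between Cxcl16 and Cxcl14, whose ranges overlapped its own.

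Set against known binding, 24 pairs of a listed ligand with a receptor were read, 5 of them with a receptor from outside the 35 genes. In 3 pairs both partners were higher in suspension, and all were pairs with Ccr1: Ccl3, Ccl6 and Ccl9. In 7 pairs the receptor was higher in suspension while the ligand was not called: Ccl5 and Ccl7 with Ccr1, Ccl2, Ccl7 and Ccl12 with Ccr2, and Cxcl2 and Cxcl3 with Cxcr2. In the pair of Cxcl1 and Cxcr2 the call of the ligand was lower and that of the receptor higher in suspension. In the Ccr2 group, where no ligand was called, the ligand means did not share a direction. Ccl2 stood at 658.6 CPM in suspension and 1083 CPM in the adherent fraction, and Ccl7 at 162.2 and 238.8 CPM. Ccl12 went the other way, at 105.9 and 73.5 CPM, and Ccr2 stood at 35.8 and 1.78 CPM. Several ligands had almost no receptor transcript in either fraction. Ccl11 met Ccr3 at 0.0834 and 0.00840 CPM, Ccl8 met Ccr8 at 0.0641 and 0 CPM, Ccl17 met Ccr4 at 0.0370 and 0.0801 CPM, Ccl25 met Ccr9 at 0.229 and 0.0336 CPM, and Cxcl16 met Cxcr6 at 0.177 and 0.113 CPM, each given as the suspension and the adherent mean.

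Many of the genes lie in clusters (coordinates of GRCm38, GENCODE M21). At chr11:82035571-82116799 lie Ccl2, Ccl7, Ccl11, Ccl12 and Ccl8, of which Ccl8 was higher in suspension, Ccl11 lower and 3 not called. At chr11:83525778-83664683 lie Ccl5, Ccl9, Ccl6, Ccl3 and Ccl4, of which the adjacent Ccl9, Ccl6 and Ccl3 were higher and the outer Ccl5 and Ccl4 not called. At chr5:90759360-90905938 Cxcl1 was lower, Cxcl2 and Cxcl3 were not called and Cxcl5 was not tested. The receptor cluster at chr9:123962124-124113557 held Ccr1 and Ccr2, both higher, and Ccr3, not tested. At chr8:94745590-94812036 Ccl17 was higher, Cx3cl1 lower and Ccl22 not tested. Ackr3 lies at chr1:90203980-90216751 and Cxcr2 at chr1:74153989-74161246.

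The 3 collection days gave 2 further comparisons, the slope per day shared by both fractions and the difference between the slopes. None of the 28 genes was called for a shared slope (edgeR, where 2 of all tested genes or 0.0134% were) or for a difference in slope (0.516% were, 0.0536% with a higher and 0.463% with a lower slope in suspension). At an unadjusted p under 0.05 there were 7 for the shared slope, 6 upward and 1 downward, against 20.4% of all tested genes, and 10 for the difference, against 19.6%. DESeq2 called a shared slope in 4, with Ccl4, Ccl24 and Ccr1 rising and Cxcl16 falling, and a lower slope in suspension in 5, namely Ccl4, Ccl6, Ccl9, Ccr1 and Ccrl2. Of all 14912 tested genes it called 1457 for the shared slope and 1021 for the difference, in either direction. The edgeR values for the difference, suspension minus adherent in log2 per day, were -0.77 for Ccl4 (adjusted p = 0.130), -0.75 for Ccl6 (0.0699), -0.64 for Ccl9 (0.129), -0.47 for Ccr1 (0.0944) and -1.19 for Ccrl2 (0.146). Without the adherent library of day 5, edgeR called 9 of the chemokine genes for a lower slope in suspension, a fit that leaves 1 residual degree of freedom. That run called 859 of 15268 genes in either direction. The 9 were these 5 with Ccl5, Cxcl2, Cxcl3 and Ccr2. Without adherent day 6 it called 3, namely Cxcl2, Cxcl3 and Ccr2. Over all genes, leaving out 1 library at a time gave 0 to 859 calls for the difference.

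As plain values, the adherent CPM was higher on each later day for 13 of the 28 genes, where 33.5% of all tested genes were, and the suspension CPM for 7, where 24.1% were. The day 6 adherent library had at least 3 times the day 4 CPM for 12 of the 28, where 6.75% of all tested genes did, and in suspension for 2 of the 28, where 2.13% did. Among the 12 were Cxcl2, with a day 6 to day 4 ratio of 78.8, Ccr2 with 16.9, Ccl11 with 11.1, Cxcl3 with 8.74, Ccl4 with 8.56 and Ccl6 with 3.26. Adherent Ccl2 had the reverse order, with a ratio of 0.519. In the adherent fraction the same ratio was 2.52 for the macrophage marker sum, 4.14 for the neutrophil sum, 5.08 for the mast cell and basophil sum and 7.07 for the eosinophil sum, the last at no more than 0.163 CPM. In suspension these were 1.01, 2.96, 1.46 and 0.113, and the part of these cell types was not tested. Each day was 1 library, so the day and the library cannot be told apart.

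**Figure D4:**
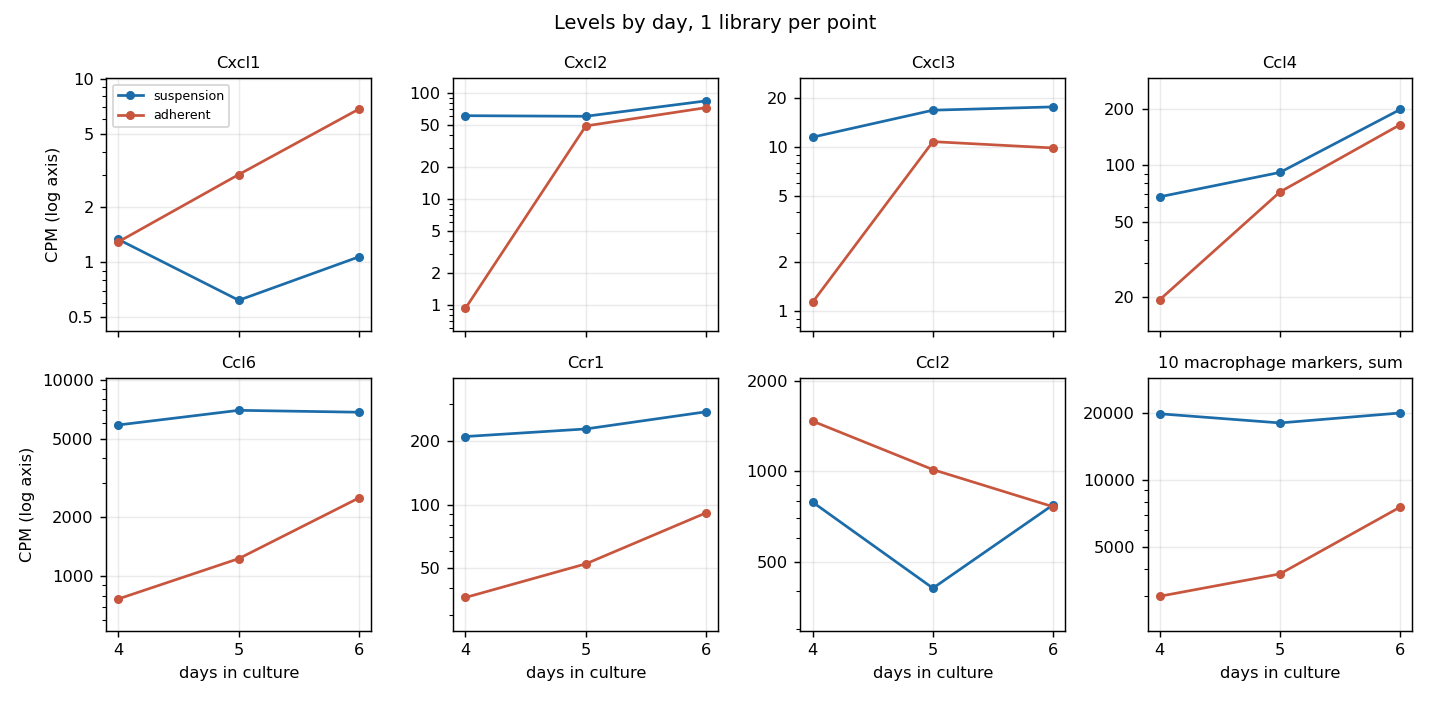
Level by day in culture for 7 genes and for the sum of 10 macrophage markers, 1 library per point, with CPM on a log axis of its own in each panel. The adherent points of Cxcl2 and Cxcl3 are lowest on day 4, at 0.923 and 1.13 CPM, and those of Ccl2 go from 1471 to 762.9 CPM.

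The other chemokine genes read here from outside the 35 were mostly scarce. Of 14 other ligands counted, 5 were tested, of which 2 were lower in suspension and none was higher. Over all tested genes 27.1% were higher and 29.7% lower. The 2 lower ligands were Ccl27a, a skin ligand with near-identical gene copies whose reads may be split, at 1.39 ± 0.517 against 5.22 ± 0.823 CPM (SD, n = 3; log2 ratio -1.92 ± 0.35, edgeR adjusted p = 0.00430), and Cxcl17, a mucosal ligand, at 0.0807 ± 0.14 against 1.51 ± 1.20 CPM (log2 ratio -4.24 ± 1.31, adjusted p = 0.0317). Ppbp, a platelet ligand of Cxcr2, had 3.24 to 3.58 CPM in suspension and 0.0923 to 1.35 CPM in the adherent fraction, without a call (adjusted p = 0.0641). Of 12 other receptors 3 were tested, and 1 was called, Cxcr1, a second neutrophil receptor. It had 97 suspension counts and 0 adherent ones, at least 10.1-fold higher in suspension when 3 counts per library are taken as the floor. Cxcr1 met the count filter through its suspension libraries alone, so its call (edgeR adjusted p = 0.00321) adds nothing to those counts. Cxcl17 met that filter through its adherent libraries alone, so its call adds nothing to its levels either.

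Transcripts of 30 genes for G proteins, kinases, arrestins and cytoskeletal regulators downstream of chemokine receptors were tested, and 21 were higher in suspension and 2 lower, with a median log2 ratio of 1.76. Over all tested genes 27.1% were higher and 29.7% lower, which is the background for this and the next 2 lists. The most abundant that were called were Gnai2, the inhibitory G protein subunit, at 857.5 ± 70.2 against 648.3 ± 84.6 CPM (log2 ratio 0.40 ± 0.13, edgeR adjusted p = 0.0381), Rac1, a GTPase of all cells, at 371.6 ± 13.9 against 287.9 ± 12.8 CPM (0.37 ± 0.09, adjusted p = 0.0137), and Rac2, its blood cell form, at 470.1 ± 95.9 against 62.2 ± 39.7 CPM (2.92 ± 0.51, adjusted p = 0.00378). The macrophage and neutrophil marker sums moved with them, and their part was not tested. Genes that cleave or hold chemokines were divided, with 5 of 14 tested higher and 7 lower. Mmp8, a neutrophil protease that is also among the neutrophil markers, was higher at 785.0 ± 172.6 against 102.9 ± 53.6 CPM, and Adam10, a sheddase of Cxcl16 and Cx3cl1, was higher at 104.2 ± 6.16 against 80.6 ± 5.67 CPM (adjusted p = 0.00275 and 0.0179). Sdc4, a heparan sulfate proteoglycan that binds chemokines, was lower at 66.4 ± 8.98 against 190.6 ± 57.1 CPM (adjusted p = 0.00229). Of 22 genes for inducers of chemokine transcription, 12 were higher and 4 lower. The most abundant called ones were the receptor chains Il4ra (log2 ratio 0.50 ± 0.16), Ifngr1 (1.06 ± 0.18) and Ifngr2 (0.56 ± 0.08), all higher in suspension (adjusted p = 0.0373, 0.00354 and 0.00232).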

How the data were processed

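The data were 6 tables of read counts per gene, 1 for each whole 10x 3′ v3 library, with 3 libraries in each fraction. The counts are as deposited and not normalized. Per the submitters' processing notes, bcl2fastq, Cell Ranger and STARsolo were used with genome build mm10, and the layout of the files is that of STAR's gene counts, which hold uniquely mapped reads, so reads shared by near-identical genes are outside them. The sense column was used. Reads in no gene were 21.2 to 21.5% of the sense total in suspension and 31.4 to 35.3% in the adherent fraction, and were left out. Of 31053 identifiers 31011 were named from GENCODE M21, and for 35 shared symbols the identifier with most counts was kept. Exonic lengths come from the same annotation, and promoters from RefSeq.

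Genes kept by filterByExpr (14912) were tested with the quasi-likelihood test of edgeR 4.0.16 in R 4.3.3, with TMM scaling and Benjamini-Hochberg adjustment at 0.05. The SE was taken as the log2 ratio over the square root of F. The fraction contrast had 4 residual degrees of freedom, the shared slope 3 and the slope difference 2. The scripts were tested on simulated counts. Replicates 1, 2 and 3 are days 4, 5 and 6, a day the labels give for both fractions. Same-day libraries deviated together from their fraction means (Pearson r across genes of 0.339, 0.146 and 0.288 for days 4, 5 and 6, and -0.308 to 0.006 between different days), so the value with a block for the day is given where it changes a call. Alternatives were reads of either strand, DESeq2 1.42.0, its size factors, other filters, thinned counts, a test against a 2-fold difference, leaving out globin and mitochondrial genes, and leaving out each library.

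All 35 genes are accounted for. Values in each library are given for genes with a mean of at least 5 CPM in a fraction or with a call, and of other pathway lists the 3 most abundant called genes and partners of described genes are named. The genes, lists and rules were chosen with earlier results of these data known. Values of 1 further receptor gene are not reported here.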

Additional observations from a re-analysis of the deposited data

Results flagged for a closer look

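Cxcr4 had 936 antisense counts over the 6 libraries, which is 17.4 per 100 sense counts. In the comparisons, antisense counts entered only the run with reads of either strand, in which Cxcr4 was called (edgeR adjusted p = 0.0412). There were 156, 182 and 372 such counts in suspension on days 4, 5 and 6 and 62, 92 and 72 in the adherent fraction, each above a floor of 3 counts. No other gene of the 35 had more than 10 antisense counts per 100 sense counts with more than 3 in every library.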

How the results depend on the processing

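No called value changed sign under any alternative run. The calls of Ccl6, Ccl17, Ccr1, Ccr2, Cxcr2 and Ackr3 held in each run that tested them. Those of Ccl3 and Ccl9 were lost only in the test against a 2-fold difference (edgeR adjusted p = 0.398 and 0.0764). In that test 3759 of all tested genes were called, with 5 of the chemokine genes higher in suspension and 1 lower. When genes had to reach 10 CPM in 3 libraries, 8685 were tested, 18 of the chemokine genes among them. Of the 8685, 5106 were called, and 1 chemokine gene was lower. Ccl11, Ccl17, Cxcl1 and Cx3cl1 were not tested there. That requirement changed the TMM factors and moved the median log2 ratio by -0.14, and scaling by library totals alone by -0.24. With the replicate block 2 were lower, Cx3cl1 and Ackr3, and it changed no call other than those of Ccl11 and Cxcl1. Leaving out 1 library at a time gave 1 to 4 lower, and without a filter 6 of the 35 genes, then all tested, were lower.

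For the shared day slope the count over all genes was 1457 in DESeq2, 66 without a filter and 0 to 13 leaving out 1 library at a time, and DESeq2 called 3 of the chemokine genes rising and 1 falling. For the slope difference it was 1021 in DESeq2, 1006 without a filter and 0 to 859 leaving out 1 library, and the chemokine genes with a lower slope in suspension were 5, 6 and 0 to 9. The cause was not tested. The mean ligand sum in suspension was 8340.3 CPM without TMM, against 9063.7 with it. At this depth, genes at or under the floor of 3 counts per library cannot be placed in order.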

Other observations

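Cxcl13, a ligand of Cxcr5 that attracts B cells, is outside the 35 genes and is named here after its values were seen. It had 1 count in suspension, and 0, 0.378 and 40.8 CPM in the adherent fraction on days 4, 5 and 6, so almost all of its counts came from 1 library, and it had too few libraries with counts to be tested. Pf4, a platelet ligand also made by macrophages, was the most abundant of the 14 other ligands counted, and was likewise named after its values were seen. It had 1220, 1239 and 1917 CPM in suspension and 790.4, 735.7 and 1359 CPM in the adherent fraction (log2 ratio 0.60 ± 0.30, edgeR adjusted p = 0.130).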
